A study of Mus musculus with 6 samples.

Results

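The genes examined were those encoding the proteins of the cytosolic ribosome, the particle that translates messenger RNA outside mitochondria. They were chosen by symbol, as protein-coding genes named Rpl or Rps followed by a number (with an optional a, x or y), with Rplp0 to Rplp2 and Rpsa and without the entries marked -ps, which are pseudogenes. The rule took 76 of the 54446 genes listed, 46 of the large subunit and 30 of the small subunit. All 76 passed the filter on low counts, which left 19176 genes. Intestinal RNA of wild-type mice (genotype label WT) was compared between 3 control samples and 3 samples of a model of necrotizing enterocolitis (NEC), a disease of the neonatal gut. Control pups stayed with the dam and met neither hypoxia nor cold. NEC pups were given 40 µl of 33% Esbilac, a milk replacer, by gavage at intervals of 4 h, and at intervals of 12 h they were kept for 100 s in 99.9% N2 and then for 10 min at 4 °C. Tissue of both groups was taken at 96 h. NEC thus differed from control in diet, handling, oxygen and temperature together, and these cannot be told apart. The labels give neither the strain, age and sex of the mice nor the segment of intestine. They also do not state that the samples are separate animals. The p-values given here therefore describe variation among the samples at hand, some of which could be technical.

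Each ribosome joins a small subunit, which reads the messenger RNA, to a large subunit, which makes the peptide bond. Nearly every ribosomal protein is present as a single molecule per ribosome, and cells make them in matched amounts. Most of their messenger RNAs begin with a cytosine and a run of pyrimidines, the 5′ terminal oligopyrimidine (TOP) motif, through which the kinase mTORC1 and the RNA-binding protein Larp1 control their translation and stability. Rapidly dividing epithelium such as the intestinal crypt is rich in ribosomes. The mouse genome carries many processed pseudogenes of these genes, whose sequences can be close to those of the parents.

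The start sites of 7 members are shown because the TOP motif is the feature that the messenger RNAs of the group are known to share. Each window holds 30 bases of the coding strand, 5′ to 3′, with the annotated transcription start between base 15 and base 16. Capitals mark the longest run of at least 7 consecutive C or T that reaches within 10 bases of the start, as far as the window shows it. The run of Rpl13a is 14 bases long and continues past the end of its window. Sequences and positions are those of RefSeq on GRCm38.p6.
Rpl14: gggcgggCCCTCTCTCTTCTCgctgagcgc
Rps6: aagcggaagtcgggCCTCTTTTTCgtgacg
Rpl28: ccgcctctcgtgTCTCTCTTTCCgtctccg
Rpl15: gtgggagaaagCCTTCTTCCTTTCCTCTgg
Rplp2: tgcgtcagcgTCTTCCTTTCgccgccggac
Rpl13a: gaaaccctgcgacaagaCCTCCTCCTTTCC
Rpl11: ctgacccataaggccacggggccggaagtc
The windows lie at chr9:120571502-120571531 (plus strand) for Rpl14, chr4:86857353-86857382 (minus) for Rps6 and chr7:4792950-4792979 (plus) for Rpl28. Those of Rpl15, Rplp2 and Rpl13a lie at chr14:18270972-18271001 (minus), chr7:141447636-141447665 (plus) and chr7:45128731-45128760 (minus). The window of Rpl11, at chr4:136053379-136053408 (minus), holds no such run.

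A promoter entry was found for 56 of the 76 members, and 31 of them (55.4%) held a pyrimidine run at the start, against 22.5% of the 27025 genes with an entry. The letters CCGGAAG, searched on both strands in the whole window of 300 bases (250 before the start and 50 after it), stood in 41.1% of the members and in 9.93% of all genes. CACGTG, likewise searched, stood in 10.7% of the members and 8.09% of all genes, and TATAAA, searched on the coding strand, in 8.93% and 9.77%. The median log2 fold change (log2FC), NEC over control, was 0.83 in the 31 members with a run, 0.79 in the 25 without and 0.79 in the 20 without an entry. A match describes the letters in these windows only.

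Total gene counts per library ran from 69441184 to 106304239, and the lowest count of any member in any library was 3706. Counting error was therefore small beside the spread between libraries. Levels are given in counts per 1000000 counts (CPM) after TMM scaling, whose factors lay between 0.929 and 1.17. The sample codes in the labels fall into AG181017 (control 1, control 2, NEC 2, NEC 3) and AG181028 (control 3, NEC 1), and the labels do not say what the codes stand for. Enterocyte markers were present in every library, with villin (Vil1) between 585 and 1012 CPM. Xist, expressed from the inactive X chromosome of females, stood at 179 CPM in control 1 and 344 CPM in control 2 and at 0.429 to 1.17 CPM elsewhere. Summed over the Y-linked Ddx3y, Kdm5d, Uty and Eif2s3y, the level came to 79.7 CPM in control 1, 3.35 CPM in control 2 and 115 to 156 CPM in the others, so control 1 held both kinds of transcript. The part of sex in the results was not tested.

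Ribosomal protein genes together took a larger mean share of the counts in NEC, but the libraries of the groups overlapped. Their share was 3.34%, 5.44% and 2.69% in control 1, 2 and 3, and 4.56%, 7.91% and 7.57% in NEC 1, 2 and 3. NEC 2 and NEC 3 lay above every control, whereas NEC 1 lay between control 1 and control 2. The mean was 3.82 ± 1.44% in control and 6.68 ± 1.84% in NEC (SD, n = 3 each), a difference of 2.86 percentage points and a ratio of 1.75. The difference did not pass a two-sided exact permutation test (p = 0.2), whose smallest possible p with 3 samples against 3 is 0.1. Within code AG181028 the share was 2.69% in control 3 and 4.56% in NEC 1, and within AG181017 both NEC libraries lay above both controls. In bulk tissue, fewer cells of a type and less RNA per cell cannot be told apart, and a share of counts does not measure ribosomes per cell.

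**Figure D1:**
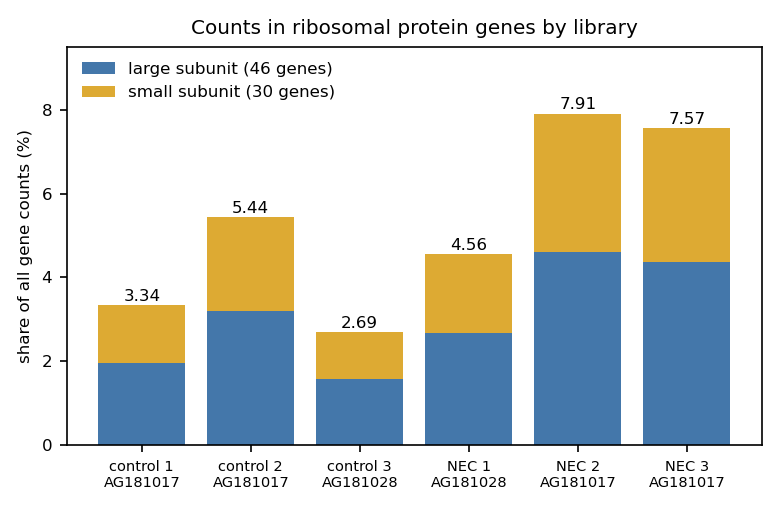
Share of all gene counts taken by the 76 ribosomal protein genes in each library, in percent, split into large and small subunit, with the sample code under each bar. NEC 2 (7.91%) and NEC 3 (7.57%) stand highest, and NEC 1 (4.56%) stands below control 2 (5.44%).

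The shares of both subunits had similar ratios of NEC to control, 1.73 for the large and 1.77 for the small subunit. Large-subunit genes took 2.25 ± 0.847% of the counts in control and 3.89 ± 1.05% in NEC, and small-subunit genes 1.57 ± 0.593% and 2.79 ± 0.786% (SD, n = 3 each; exact permutation p = 0.2 for each). The ratio of large to small subunit counts was 1.421, 1.428 and 1.433 in control and 1.418, 1.397 and 1.371 in NEC. Every NEC library lay below every control in this ratio (exact permutation p = 0.1, the smallest possible), by 0.032 on average. The order was lost with counts on pseudogene copies added (exact permutation p = 0.5). Without NEC 3 the difference was 0.020.

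The members lay higher in NEC almost without exception in sign, but no single gene passed the test. The edgeR log2 fold change was above 0 in 74 of 76 members, against 51.9% of all genes tested. Rpl29 was 1 of the 2 exceptions. The median was 0.81 on the log2 scale, or 1.75-fold, against 0.026 over all genes, and the lower and upper quartiles were 0.63 and 0.93. Of the 76, 11 had a log2FC of at least 1, 57 lay from 0.5 to 1, and 6 lay between 0 and 0.5. The large subunit had a median of 0.79 with 45 of 46 above 0, and the small subunit 0.83 with 29 of 30 above 0.

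At an adjusted p below 0.05 (edgeR quasi-likelihood test, Benjamini-Hochberg over all genes), 0 of 76 members were called higher and 0 lower. The background was 0.261% of genes called higher and 0.443% called lower. The smallest adjusted p among members was 0.0666, for Rpl14. At an unadjusted p below 0.05, 32 members were higher and 0 lower, against 7.61% and 7.99% of all genes. That count moved with single libraries: it was 64 without control 2 and 45 without NEC 1, but 6, 9, 12 and 7 without control 1, control 3, NEC 2 and NEC 3. DESeq2 called 6 members higher (Rpl14, Rpl17, Rpl36, Rpl8, Rps13 and Rps6) and 0 lower, against 3.69% and 4.02% of genes, and limma-voom called 0. In simulated data of this design edgeR found 2% of the genes given a log2FC of 1 and 34% of those given a log2FC of 2. Those genes were drawn at random from all genes tested and varied independently, so the rates are not the members' own.

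In 15 members every NEC library lay above every control, and in 0 every NEC library lay below, against 10.8% and 11.6% of all genes. The 15 were Rpl4, Rpl8, Rpl9, Rpl14, Rpl15, Rpl17, Rpl19, Rpl28, Rpl36, Rps2, Rps6, Rps9, Rps13, Rps15 and Rps27a. Control 2 and NEC 1 accounted for most overlaps, with NEC 1 below control 2 in 57 members. Without control 2, 65 members did not overlap with NEC higher and 1 with NEC lower (background 16.9% and 17.8%). Without NEC 1 the counts were also 65 and 1 (background 18.5% and 16.5%), and without any other single library they were 15 or 16 and 0 (background 12.9% to 18.1% higher and 13.5% to 19.2% lower).

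**Figure D2:**
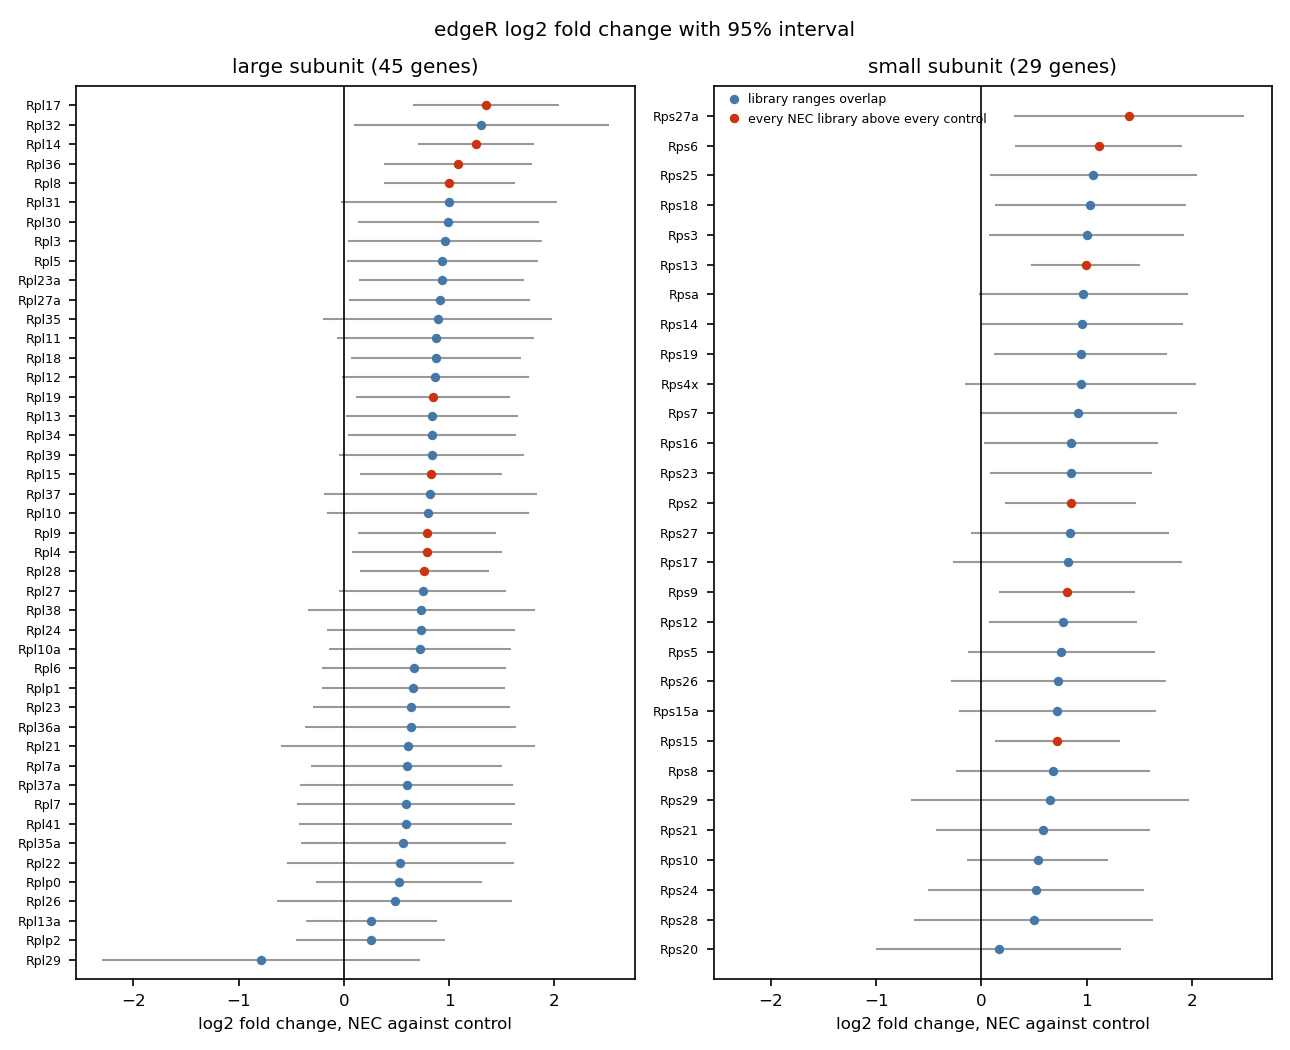
edgeR log2 fold change, NEC over control, of 74 of the 76 genes with its 95% interval, by subunit and in order of size. Red points mark the 15 genes in which every NEC library lay above every control, and Rpl29 is the point left of 0.

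The genes moved together from library to library. After removal of the group means, the median correlation between pairs of members over the 6 libraries was 0.95, a description of libraries that all members share. Control 2 was the highest control in 69 members and control 3 the lowest in 66. NEC 3 was the highest NEC library in 69 and NEC 1 the lowest in 64. The order of the libraries was thus shared by most members.

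**Figure D3:**
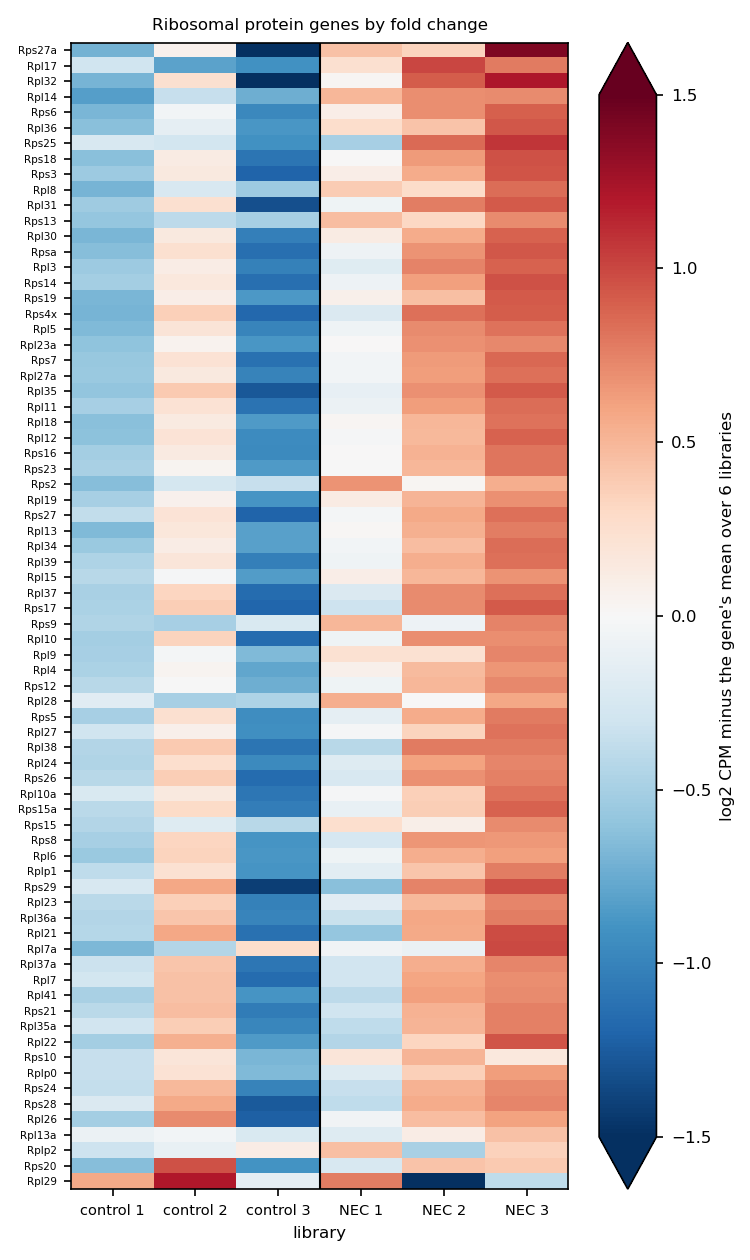
Log2 CPM of 74 of the 76 genes in each library minus the gene's mean over the 6 libraries, with genes in order of fold change from Rps27a at the top to Rpl29 at the bottom. Most rows share a pattern, with control 3 lowest and NEC 3 highest. The rows of Rplp2, Rps20 and Rpl29, toward the bottom, are among those that depart from it.

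Among large-subunit proteins, Rpl14 had the smallest p. Rpl14 (ENSMUSG00000025794, chromosome 9, 120571444 to 120574654, plus strand) had 149, 209 and 159 CPM in control and 373, 429 and 433 CPM in NEC. All 3 NEC libraries lay well above all 3 controls, and the libraries of each group lay close together. The means were 172 ± 32.1 and 412 ± 33.2 CPM (SD, n = 3 each), a log2FC of 1.26 (SE 0.24, 95% interval 0.70 to 1.81, edgeR adjusted p = 0.0666). Rpl8, which lies near the peptidyl transferase centre, had 389, 535 and 431 CPM in control and 820, 761 and 1129 CPM in NEC. Its log2FC was 1.0 (SE 0.27, edgeR adjusted p = 0.137), and the groups did not overlap. Rpl36 had 315, 445 and 267 CPM in control and 586, 658 and 932 CPM in NEC, also without overlap, with a log2FC of 1.08 (SE 0.30, edgeR adjusted p = 0.150). Rpl28 had 728, 580 and 592 CPM in control and 1190, 820 and 1218 CPM in NEC. Its log2FC was 0.76 (SE 0.26). Rpl28, unlike most members, was highest among the controls in control 1 and nearly as high in NEC 1 as in NEC 3. Rpl15 had 199, 263 and 149 CPM in control and 285, 376 and 423 CPM in NEC, again without overlap, with a log2FC of 0.83 (SE 0.29).

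Rpl17 and Rpl32 had the largest fold changes of the large subunit on the counts of the genes alone. Rpl17, part of the rim of the polypeptide exit tunnel, had 296, 209 and 194 CPM in control and 431, 730 and 627 CPM in NEC. The groups did not overlap, and the log2FC was 1.35 (SE 0.30, edgeR adjusted p = 0.0947). Rpl32 had 451, 864 and 225 CPM in control and 742, 1370 and 1697 CPM in NEC. Control 2 lay above NEC 1 here, and the log2FC of 1.31 had an SE of 0.52 (edgeR adjusted p = 0.286).

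On the counts of the genes alone, Rps27a of the small subunit had the largest fold change of all members. With counts on pseudogene copies added, its log2FC was 1.03, below the 1.34 of Rpl14 and the 1.31 of Rpl32, and its groups overlapped. Rps27a encodes a fusion of ubiquitin with a ribosomal protein, so its messenger RNA also supplies ubiquitin. It had 239, 407 and 134 CPM in control and 530, 493 and 1032 CPM in NEC. The groups did not overlap, but NEC 3 stood far above the other libraries. The log2FC was 1.40 (SE 0.47, 95% interval 0.31 to 2.49, edgeR adjusted p = 0.221). Rps6, the protein phosphorylated by the S6 kinases downstream of mTORC1, had 439, 683 and 361 CPM in control and 752, 1146 and 1312 CPM in NEC. Its log2FC was 1.11 (SE 0.34, edgeR adjusted p = 0.183), and the groups did not overlap. These are levels of messenger RNA and say nothing of the phosphorylation of Rps6.

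Rps13, Rps2 and Rps9 had low spread in control. Rps13 had 166, 189 and 175 CPM in control and 342, 307 and 405 CPM in NEC, with a log2FC of 0.99 (SE 0.22, edgeR adjusted p = 0.098). Rps2, at the entry of the messenger RNA channel, had 378, 489 and 461 CPM in control and 939, 598 and 853 CPM in NEC, with a log2FC of 0.85 (SE 0.27). Rps9 had 370, 360 and 433 CPM in control and 718, 481 and 848 CPM in NEC, with a log2FC of 0.81 (SE 0.28). In Rps2 and Rps9 control 3 was not the lowest control, and NEC 2 rather than NEC 1 was the lowest NEC library.

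Rpl5 and Rpl11, which enter the large subunit together with 5S ribosomal RNA and bind Mdm2 when assembly fails, both had a log2FC above the group median. Rpl5 had 470, 847 and 375 CPM in control and 713, 1219 and 1307 CPM in NEC (log2FC 0.94, SE 0.39). Rpl11 had 443, 728 and 290 CPM in control and 588, 966 and 1121 CPM in NEC (log2FC 0.87, SE 0.40). NEC 1 lay below control 2 in both. The X-linked Rps4x had 496, 1031 and 355 CPM in control and 690, 1418 and 1506 CPM in NEC (log2FC 0.94, SE 0.47). Among the 4 members on the X chromosome the log2FC values lay from 0.63 (Rpl36a) to 0.94 (Rps4x). Rpl41 and Rpl39 encode very small proteins. Rpl41 had 466, 887 and 352 CPM in control and 495, 998 and 1068 CPM in NEC (log2FC 0.59, SE 0.44). Rpl39 had 333, 523 and 227 CPM in control and 440, 672 and 818 CPM in NEC (log2FC 0.83, SE 0.38).

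The P stalk, which draws elongation factors to the large subunit, had fold changes below the group median. Rplp0, its base, had 1430, 2112 and 1155 CPM in control and 1596, 2331 and 2820 CPM in NEC, with a log2FC of 0.52 (SE 0.34). Rplp1 had 853, 1304 and 601 CPM in control and 996, 1483 and 1881 CPM in NEC, with a log2FC of 0.66 (SE 0.37). Rplp2 had 357, 412 and 479 CPM in control and 604, 318 and 565 CPM in NEC, with a log2FC of 0.25 (SE 0.30). NEC 2 was the lowest library of all for Rplp2 and the second highest for its partner Rplp1. Together the 3 genes took 0.284 ± 0.0870% of the counts in control and 0.429 ± 0.10% in NEC (SD, n = 3 each; exact permutation p = 0.2).

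Rpl29 had the lowest log2FC of all members, but it did not pass the test. Rpl29 had 256, 398 and 157 CPM in control and 295, 41.8 and 133 CPM in NEC. NEC 2 and NEC 3 lay below every control while NEC 1 lay above 2 of them. The log2FC was -0.79 (SE 0.65, 95% interval -2.30 to 0.72, edgeR adjusted p = 0.625).

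Rpl13a and Rps20 lay near 0. Rpl13a had 2031, 2087 and 1838 CPM in control and 1886, 2329 and 2912 CPM in NEC. Its log2FC was 0.26 (SE 0.27, 95% interval -0.36 to 0.88). Rps20 had 260, 783 and 218 CPM in control and 341, 541 and 530 CPM in NEC, with a log2FC of 0.16 (SE 0.50). Control 2 was its highest library. Without control 2 its log2FC was 0.98, and without control 1 or control 3 it was -0.089 or -0.16.

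Within each sample code the direction was the same for nearly all members. Between NEC 1 and control 3, the libraries of code AG181028, 74 of 76 members were higher in NEC, with a median difference of 0.89 in log2 CPM. Between the mean of NEC 2 and NEC 3 and that of control 1 and control 2, of code AG181017, 74 were higher, with a median of 0.80. Over all genes these medians were -0.014 and 0.030. The members higher in both codes numbered 73, and in 65 the NEC libraries lay above the controls of the same code without overlap in either code, against 19.4% of all genes. With the code as a term in edgeR, 0 members were called (background 0.459% of genes higher and 0.808% lower), the smallest adjusted p was 0.0505 and the median log2FC was 0.82. At an unadjusted p below 0.05, 59 members were then higher, against 10.7% of all genes. Code AG181028 has 1 library per group, so the difference within it has no replicate check.

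A few members differed between the codes. Rpl29 differed by -2.10 within AG181017 and by 0.90 within AG181028. Rpl7a differed by 1.0 and by -0.31, with 158, 186 and 301 CPM in control and 242, 235 and 498 CPM in NEC. Rps25 differed by 1.22 and 0.41, and Rps27a by 1.19 and 1.98.

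**Figure D4:**
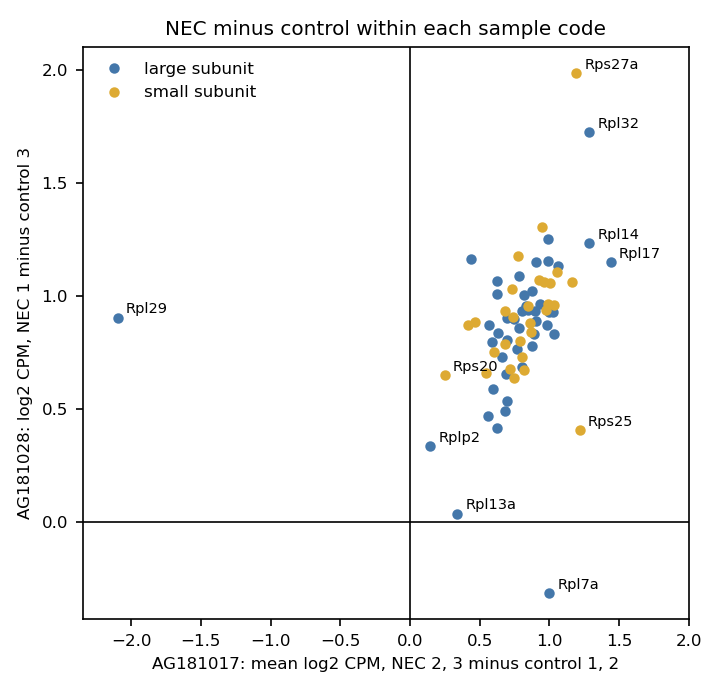
Difference in log2 CPM, NEC minus control, within the samples of code AG181017 (horizontal) and AG181028 (vertical), 1 point per gene for 74 of the 76 genes. All but Rpl29, which lies far left, and Rpl7a, which lies below 0 in AG181028, are in the upper right quadrant (72 genes).

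Expressed as a share of the counts in all 76 members, most members differed little between control and NEC. Scaled this way, 58 of 76 members had a log2FC within 0.25 of 0. Larger values included -1.25 for Rpl29, -0.56 for Rpl13a and -0.52 for Rplp2. On the other side were 0.71 for Rps27a, 0.63 for Rpl32, 0.52 for Rpl17 and 0.50 for Rpl14. Rpl13a made up a mean of 5.45% of the pool in control and 3.69% in NEC. The groups did not overlap, with NEC higher, in 9 members (Rpl18, Rpl23a, Rpl27a, Rpl30, Rps3, Rps6, Rps16, Rps18 and Rps23), against 1.9% of all genes on this scale. With NEC lower they did not overlap in 2 members, 1 of them Rplp0, against 26.5% of all genes. The member total was larger on average in NEC, so this scaling by itself lowers other genes in NEC. The backgrounds on this scale are therefore no yardstick for the members. Rps6 made up 1.24%, 1.26% and 1.33% of the pool in control and 1.61%, 1.70% and 1.61% in NEC. Rplp0 made up 4.03%, 3.89% and 4.25% in control and 3.42%, 3.45% and 3.46% in NEC. These counts also moved with single libraries. Without control 2 they were 22 higher and 5 lower (background 2.61% and 53.5%), without control 3 15 and 11 (4.83% and 29.1%), and without NEC 1 19 and 6 (2.66% and 50%). Without NEC 2 they were 12 and 4 (3.08% and 34.4%), without NEC 3 13 and 4 (3.1% and 27.4%), and without control 1 10 and 2 (2.66% and 28.2%).

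For some members the share of the pool also differed between the sample codes. In mean log2 share of the pool, AG181028 lay above AG181017 by 1.16 for Rpl29, 1.10 for Rplp2, 0.93 for Rps2, 0.89 for Rps9 and 0.84 for Rpl7a. It lay below by the largest amounts for Rps29 (-0.85), Rpl21 (-0.59), Rpl32 (-0.58) and Rps28 (-0.55). Across the 76 genes this shift correlated weakly with the GC content of the transcript (Pearson's r = 0.37, Spearman's rho = 0.34), a description over genes that share 6 libraries. The fold change of NEC over control had a rho of -0.020 with GC content, 0.17 with transcript length and 0.13 with mean level over the same genes.

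Levels can be compared between genes only per transcript length. By mean CPM per kilobase over the 6 libraries, the most abundant members were Rps14 (2464), Rps27 (2395), Rplp1 (2378), Rps29 (2236) and Rps28 (2225). The least abundant were Rps20 (120), Rpl14 (289), Rpl7a (295), Rpl15 (352) and Rpl29 (366). These values leave out counts on pseudogene copies, which are described below, and may understate the level of some genes. Of the counts of gene and copies, the copies took 43.9% to 77.7% for Rpl7a and 35.6% to 45.4% for Rpl15. They took 13.8% to 73.2% for Rpl29 and 14.9% to 22.6% for Rpl14. The only coding transcript of Rps20 in GENCODE M21 is 3706 bases long, against a median of 680.5 bases over the members, so its value per length may understate its level. For the others, Rps14 had 926, 1469 and 602 CPM in control and 1256, 2020 and 2552 CPM in NEC (log2FC 0.96, SE 0.41). Rps27 had 582, 867 and 325 CPM in control and 735, 1113 and 1334 CPM in NEC (log2FC 0.84, SE 0.40). Rps29 had 632, 1121 and 281 CPM in control and 485, 1254 and 1460 CPM in NEC (log2FC 0.65, SE 0.57). NEC 1 lay below control 1 as well as control 2 for Rps29. Rps28 likewise had 467, 808 and 226 CPM in control and 417, 801 and 899 CPM in NEC (log2FC 0.50, SE 0.49).

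Pseudogene copies took part of the counts of some members. Transcripts of 1049 listed pseudogenes aligned to 75 members with at least 90% identity over at least 50% of the copy. These copies held 0.548 ± 0.253% of all counts in control and 0.904 ± 0.292% in NEC (SD, n = 3 each; exact permutation p = 0.2). In 17 members the copies took over 20% of the counts of gene and copies in at least 1 library, and in 5 members that share varied by over 20 percentage points between libraries. How the authors' counting assigned reads that match several genes is not given in the sources used here, so the values of these members are uncertain.

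Rpl29 and Rps27a, at the ends of the list of fold changes, were among the members with the most variable copy share. For Rpl29 the copies took 13.8%, 15.6% and 14% in control and 18.5%, 73.2% and 45.1% in NEC. With the copies added, Rpl29 had 296, 473 and 181 CPM in control and 360, 157 and 244 CPM in NEC, and its log2FC was -0.32 (SE 0.43). For Rps27a the copies took 36.6%, 36.7% and 42.3% in control and 7.52%, 39.4% and 10.2% in NEC. With the copies added, the log2FC of Rps27a was 1.03 (SE 0.43), and control 2 lay above NEC 1. The copies of Rpl17 took 40.4% to 75.9% of its counts, and with them its log2FC was 0.81 (SE 0.28) in place of 1.35. For Rpl7a the copies took 74.3%, 77.7% and 43.9% in control and 67.7%, 73.6% and 52.8% in NEC. With copies added to every member, 74 of 76 members still had a log2FC above 0, the median was 0.79 and 0 were called by edgeR. The adjusted p of Rpl14 was then 0.0542.

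**Figure D5:**
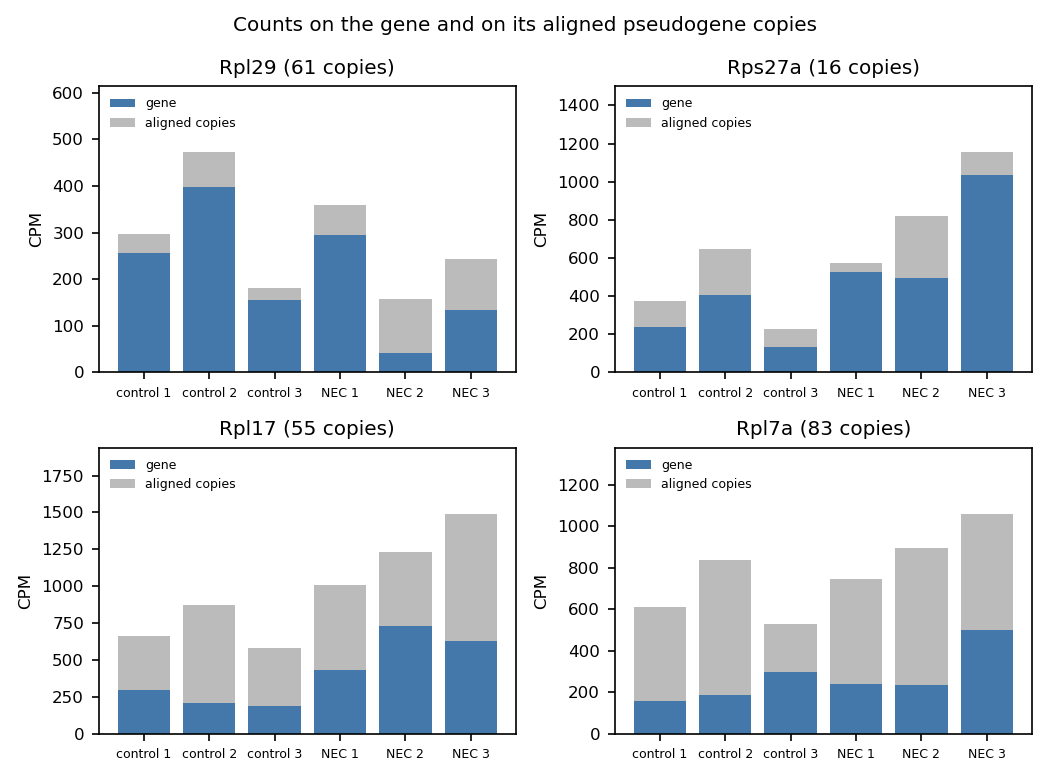
CPM on the gene (blue) and on its aligned pseudogene copies (grey) in each library for Rpl29, Rps27a, Rpl17 and Rpl7a. The share on copies differs between libraries of the same group, and is highest for Rpl29 in NEC 2 (73.2%).

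Other genes lie over or inside many members. Exons of a gene on the opposite strand overlapped 18 members, exons of another gene on the same strand overlapped 6, and 29 members hold 58 small nucleolar RNA genes. The strand setting of the counting is not given in the sources used here, so reads of a member and of its antisense partner cannot be told apart. Among the members named above, this applies to Rps2 (partner Snhg9), Rpl28 (Ube2s), Rpl32 (Cand2), Rpl15 (Nkiras1), Rpl5 (Fam69a), Rps27a (Clhc1), Rps28 (Kank3), Rps25 (Ccdc84 and Trappc4), Rpl18 (Sphk2), Rpl23a (Tlcd1), Rpl30 (D730044K07Rik) and Rps18 (Vps52).

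The background for the gene lists from here on is that of all genes tested, of which 51.9% had a log2FC above 0. At an unadjusted p below 0.05, 7.61% of them were higher and 7.99% lower. edgeR called 0.261% higher and 0.443% lower. The 4 structural parts and partners that the symbol rule leaves out lay on the same side as the members. Among them Fau and Rps3a1 encode ribosomal proteins, Fau as a fusion with a ubiquitin-like protein, and Rack1 is a scaffold bound to the small subunit. Of these 4, 0 were called by edgeR (2 at an unadjusted p below 0.05). Rack1 had 414, 656 and 333 CPM in control and 613, 933 and 1236 CPM in NEC (log2FC 0.99, SE 0.37). The log2FC was 0.55 (SE 0.29) for Fau and 0.54 (SE 0.38) for Rps3a1. The paralogs, which replace a standard protein in some tissues, had a lower median. Of 8 paralogs 5 were tested, 0 were called (0 at an unadjusted p below 0.05), and their median was 0.14. Rpl22l1 had 244, 384 and 118 CPM in control and 115, 207 and 221 CPM in NEC (log2FC -0.46, SE 0.45), while Rpl22 itself had 0.54 (SE 0.46). Rpl36al had a log2FC of 0.45 (SE 0.43) and Rps4l of 0.15 (SE 0.20).

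Elongation factors and other genes with TOP messenger RNAs had a median log2FC of 0.49 over 20 genes, 15 of them above 0. Of the 20, 0 were called (4 were higher and 1 lower at an unadjusted p below 0.05). Eef1a1, which brings aminoacyl-tRNA to the ribosome, had 2106, 2580 and 2622 CPM in control and 4313, 3748 and 4359 CPM in NEC (log2FC 0.76, SE 0.26, edgeR adjusted p = 0.214). Its groups did not overlap, and unlike most members it was high in NEC 1. Eif3h had a log2FC of 0.71 (SE 0.23). Snhg12, a host of small nucleolar RNAs, lay the other way, with 70.7, 55.8 and 49.2 CPM in control and 29.98, 28.4 and 35.6 CPM in NEC (log2FC -0.90, SE 0.24, edgeR adjusted p = 0.129).

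Initiation factors had a median of 0.36 over 30 genes, 26 above 0. Of the 30, 0 were called (5 were higher and 1 lower at an unadjusted p below 0.05). Eif4a2, an RNA helicase, had 143, 184 and 153 CPM in control and 67.5, 68.3 and 69.7 CPM in NEC (log2FC -1.23, SE 0.21, edgeR adjusted p = 0.0527). Eif6, which keeps the large subunit from joining the small one until it is mature, had 114, 131 and 184 CPM in control and 318, 219 and 457 CPM in NEC (log2FC 1.21, SE 0.34, edgeR adjusted p = 0.149). Eif2b3, a part of the exchange factor of eIF2, had a log2FC of 1.62 (SE 0.42) at 2.24 to 12.7 CPM.

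Genes of ribosome assembly were tested as far as the list goes. RNA polymerase I, which makes ribosomal RNA, was represented by 15 genes with a median of 0.29, 9 above 0 and 0 called (0 at an unadjusted p below 0.05). Its members with the smallest p were Taf1d (0.59, SE 0.28), Polr1d (0.53, SE 0.28) and Ttf1 (-0.55, SE 0.31). Processing of ribosomal RNA and subunit assembly had 50 genes with a median of 0.49, 43 above 0, against 51.9% of all genes. At an unadjusted p below 0.05, 8 were higher and 0 lower (7.61% and 7.99% of all genes). Of the 50, edgeR called 1 higher and 0 lower (0.261% and 0.443% of all genes). The called gene was Ddx21, a nucleolar RNA helicase, with 17.7, 18.3 and 15.5 CPM in control and 45.6, 53.0 and 43.5 CPM in NEC. Its log2FC was 1.46 (SE 0.22, edgeR adjusted p = 0.0396), and the call was lost when any single library was left out, at log2FC values of 1.37 to 1.53. Fbl, the methyltransferase of ribosomal RNA, had 0.92 (SE 0.23, edgeR adjusted p = 0.121), and Ltv1, a small-subunit assembly factor, had 1.03 (SE 0.27, edgeR adjusted p = 0.128). Of the 4 chaperones of ribosomal proteins 0 were called (1 at an unadjusted p below 0.05), with Hgh1 at 0.96 (SE 0.31), Bccip at 0.27 (SE 0.26) and Grwd1 at 0.29 (SE 0.32).

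Regulators in the mTORC1 and Myc pathways had a median of 0.019 over 26 genes, 15 above 0. Of the 26, 0 were called. At an unadjusted p below 0.05, 4 were higher and 2 lower (7.61% and 7.99% of all genes). Mycn, a relative of the growth regulator Myc, had 30.1, 16.7 and 50.3 CPM in control and 6.58, 6.39 and 5.68 CPM in NEC (log2FC -2.38, SE 0.41, edgeR adjusted p = 0.0537). It was called without control 2. Eif4ebp3, which binds the cap-binding protein eIF4E, had 8.01, 8.56 and 5.36 CPM in control and 26.1, 14.7 and 31.3 CPM in NEC (log2FC 1.72, SE 0.36, edgeR adjusted p = 0.0842). Sesn2, an inhibitor of mTORC1, had 55.1, 36.7 and 66.3 CPM in control and 26.6, 23.5 and 18.8 CPM in NEC (log2FC -1.20, SE 0.29, edgeR adjusted p = 0.110). In these 3 genes the groups did not overlap. Of 15 genes of ribosome quality control 0 were called (1 at an unadjusted p below 0.05), with a median of 0.15. Abce1, which recycles ribosomes, had 0.85 (SE 0.33), Nufip1 0.54 (SE 0.24) and Ascc3 -0.49 (SE 0.29).

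Markers of other cell types moved between the libraries as well, and their part in the result was not tested. The 8 enterocyte markers summed to 104242, 49683 and 123851 CPM in control and 82572, 37280 and 105367 CPM in NEC, lowest in control 2 and NEC 2. Most of that sum was the apolipoprotein Apoa4. The other 7 markers summed to 18501, 15975 and 18458 CPM in control and 11979, 8522 and 15664 CPM in NEC. Every control lay above every NEC library in that sum, narrowly between control 2 and NEC 3. Of the 8 markers singly, only 2 (Lct and Apob) did not overlap, with NEC lower, against 11.6% of all genes. Fabp2 was highest of all libraries in NEC 3 (6506 CPM). The median log2FC of all 8 enterocyte markers was -0.25, with 0 called. The 10 markers of dividing crypt cells summed to 327, 397 and 267 CPM in control and 240, 543 and 299.6 CPM in NEC, with a median of 0.14 and 0 called. Within each group the libraries stood in the same order in this sum as in ribosomal protein share of unscaled counts. With TMM scaling, which the sum uses, the ribosomal protein share was 4.66%, 6.75% and 8.15% in NEC 1, 2 and 3. NEC 3 rather than NEC 2 was then the highest, so the order within NEC depended on the scaling. Between the groups the order differed, with NEC 3 among the controls in this sum and NEC 1 below them. The 5 stem cell markers had a median of -1.35 and summed to 285 to 398 CPM in control and 47.1 to 173 CPM in NEC. Most of the sum in control was Olfm4, with 284, 328 and 221 CPM there and 18.1, 121 and 105 CPM in NEC. Lgr5 was the 1 marker of the 5 above 0 (log2FC 0.12, SE 0.36). The 5 goblet cell markers had a median of 1.07, with sums of 796 to 1458 CPM in control and 951 to 2141 CPM in NEC. Of them 4 had a log2FC above 0, with Fcgbp at 0.031 (SE 0.33). Clca1 lay the other way, with 132, 91.9 and 94.4 CPM in control and 10.3, 32.9 and 23.9 CPM in NEC (log2FC -2.25, SE 0.43).

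Among blood cell markers, 5 of 8 for neutrophils were tested, with a median of 1.86, and they summed to 5.05 to 11.9 CPM in control and 23.8 to 51.5 CPM in NEC. Ly6g and Elane, which define neutrophils and their precursors, were at 0 in every library. The 7 macrophage markers had a median of 0.61, and 1 of them, the scavenger receptor Cd163, was called higher (log2FC 3.71, SE 0.54, edgeR adjusted p = 0.0396). The 7 summed to 299.6 to 378 CPM in control and 201 to 273 CPM in NEC. Most of that sum was Csf1r, the receptor of a macrophage growth factor, whose log2FC was -1.10 (SE 0.24, edgeR adjusted p = 0.0919). The other 6 all had a positive log2FC and summed to 51.9 to 58.6 CPM in control and 66.5 to 124 CPM in NEC. The 7 erythroid markers had a median of 2.44 and summed to 213 to 338 CPM in control and 475 to 2751 CPM in NEC, highest in NEC 2. Of 8 lymphocyte markers 7 were tested, with a median of -0.39 and sums of 2.5 to 9.09 CPM over all libraries. The 6 smooth muscle markers had a median of 0.086 and summed to 865 to 2050 CPM in control and 1019 to 3009 CPM in NEC. Of 7 pancreatic acinar markers 3 were tested, with a median of -1.56. Cela1 was called lower (log2FC -3.06, SE 0.37, edgeR adjusted p = 0.0297), Pnlip and Amy2b were at 0 in every library, and the 3 summed to 40.5 to 182 CPM in control and 10.2 to 80.2 CPM in NEC.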

How the data were processed

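Per the labels' protocols, TRIzol-extracted RNA of 6 mouse intestine samples was sequenced on a NovaSeq in pairs of 150 bp reads. The authors deposited whole-number gene counts; the submitters' processing notes name the build mm10. For the aligner, the counter, the annotation and strandedness: not given in the sources used here. Of 54446 identifiers, 54409 matched a GENCODE M21 symbol; the 37 others held at most 0.00242% of a library's counts. Low counts from 4 to 40 fell on multiples of 4 at 1.93 times the frequency of neighbouring values, so a sequenced fragment may stand for about 4 counts. Depth was 69441184 to 106304239 counts per library, and every 2 libraries of a group differed by more than sampling noise.

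The test was edgeR's quasi-likelihood F test (edgeR 4.0.16, R 4.3.3) on the 19176 genes that filterByExpr kept (minimum count 10), with TMM scaling, robust=TRUE, group as the only term and Benjamini-Hochberg adjustment. Calls were made at an adjusted p below 0.05. SE denotes the error of a log2FC. Shares were compared by a two-sided exact permutation test. Pseudogene copies were found with blastn 2.17.0; adding their counts, and the alternatives for the subunit ratio, were chosen after seeing the data. The procedure was tested on simulated data for the 19176 genes, where it found 2%, 34%, 74% and 82% of genes given log2FC values of 1, 2, 3 and 4; unchanged genes made up 12 of 108 calls.

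The members, the gene lists and the tests were chosen with earlier results of these data known. Named members were any called, the 10 with the smallest p, the 5 largest and 5 smallest log2FC values, the 5 most and 5 least abundant per length, Rpl5, Rpl11, the P stalk, Rps6, Rps4x, Rpl41 and Rpl39. From each related list, called genes and up to 3 with the smallest p were named, and those of the structural list. Values of a few genes covered by this rule are not reported here, though sums and counts include them. Rps25, Rpl21, Rpl22, Rpl36a and the members listed for not overlapping were named after their values were seen. Alternatives in scaling were RLE, upper quartile and library size; in filtering, none or 50 counts in 3 samples; in testing, DESeq2 1.42.0, limma-voom (limma 3.58.1) and robust=FALSE. Further fits took the replicate number as a block, took the sample code as a term, used code AG181017 alone, left out each library, removed the 5 most abundant genes, or added counts of -ps pseudogenes.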

Additional observations from a re-analysis of the deposited data

How the results depend on the processing

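The count of ribosomal protein genes called was 0 under every alternative except DESeq2, which called 6, and 74 of 76 had a positive log2FC, or 73 without control replicate 1 or 3. Their median log2FC lay between 0.75 and 0.86 under the settings that kept all libraries of a code, and between 0.60 and 1.14 with each library left out. The difference in share lay between 2.62 and 3.35 percentage points, and between 2.24 and 3.92 with each library left out. Among the related lists, whose numbers tested are given with each list, edgeR called 1 gene (0.261% of all genes higher, 0.443% lower). The count was 3 with no filter and 3 with the stricter filter. Beside the share of all genes called, it was 0 with library-size scaling (0.579%), 15 with DESeq2 (7.71%) and 2 with limma-voom (0.787%). It was 4 with the sample code as a term (1.27%) and 0 in AG181017 alone (0.129%). With each library left out it was 0 to 1 (0% to 0.528%). Rps20 had a log2FC of -0.089 without control replicate 1, -0.16 without control replicate 3 and 0.98 without control replicate 2. The cause was not tested. With the replicate number as a block, 0 ribosomal protein genes, 0 genes of the related lists and 54 of all genes were called. The difference in share was then 2.86 percentage points (sign-flip permutation p = 0.25). Same-numbered samples deviated with correlations of -0.16, 0.39 and -0.018, so the numbers do not pair the samples. Genes called over the whole table numbered 135 with all libraries, 0 without control replicate 1, 3 without NEC replicate 3 and 1446 with DESeq2. The alternatives in scaling moved the median of all genes to at most 0.098. The lowest count of a ribosomal protein gene in a library was 3706, so depth limited these genes little.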
